A study of Rattus norvegicus with 18 samples.

Results

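CC chemokines are small secreted proteins that direct leukocytes through G protein-coupled receptors. Described here are 8 of them in rat blood: Ccl2, Ccl7, Ccl3, Ccl4, Ccl5, Ccl19, Ccl20 and Ccl22, of 15443 genes that the array names. They were chosen from measured values: the ratios of these same arrays were known when the members were picked, and a probe was taken as a member where its array identifier maps by RefSeq to one of these symbols. Their response to procainamide is therefore given as a description, with no test. All 8 were probed and all 8 passed the filter on dim probes, which asked for a signal well above background on 4 of 18 arrays. Of these, Ccl20 had several probes, and the brightest is used, with the other given where it differs.

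The family is named for adjacent cysteines near the start of the mature protein. Ccl2 and Ccl7 are ligands of Ccr2 and draw monocytes from marrow into blood and tissue. Ccl3, Ccl4 and Ccl5 draw T cells and monocytes to inflamed tissue, and T cells and NK cells are a known source of them. Ccl19 guides T cells and mature dendritic cells through Ccr7, Ccl20 guides lymphocytes and dendritic cells through Ccr6, and Ccl22 acts on T cells through Ccr4. Many of these genes are known targets of NF-kB and of interferon signalling.

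The groups were Brown Norway (BN) rats given 40 mg/kg procainamide (4 arrays), BN rats given sterile water (4 arrays), Sprague Dawley (SD) rats given 40 mg/kg procainamide (5 arrays) and SD rats given sterile water (5 arrays). All rats were male, and blood was drawn at the end of treatment. Age, length of treatment and the number of animals behind an array are not given in the sources used here, so every p-value measures the spread between these samples, which may be technical. The series set strains side by side to study immune reactions to procainamide, an antiarrhythmic drug known for causing lupus in patients.

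On each array Cy5 carried the sample and Cy3 carried the RNA of control replicate 1 of the same strain, so a log2 ratio of 0 means a level equal to that control. The labels give control replicate 1 of each strain in both dyes of its own array. Per array, 73.3% to 87.1% of probes lay well above background, and median Cy5 intensity ran between 997 and 3187 units. The BN procainamide arrays filled 1 slide, and the BN control arrays shared another, scanned on a different day, with SD procainamide 4 and 5. The SD control arrays and SD procainamide 1 to 3 shared the remaining slide. In BN, slide and treatment therefore cannot be told apart. In whole blood, fewer cells of a type and less RNA per cell cannot be told apart either. Array number and signal over background limit the precision of every value. Blood cell markers were present: each probed gene of the lists for monocytes, neutrophils, T cells, NK cells, B cells and red cell precursors was well above background on at least 1 array of each group. The same held for the 13 probed markers of endothelium, stroma and epithelium, so this presence does not set blood apart from other tissue.

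Position and promoter sequence were read apart from the measured ratios. Of the 8 members, 5 lie on chromosome 10 of GRCr8, where Ccl2, Ccl7 and Ccl11 are neighbours, Ccl6, Ccl3 and Ccl4 are neighbours, and Ccl5 lies next to Ccl9. Ccl19 lies on chromosome 5 next to Ccl27, Ccl20 on chromosome 9, and Ccl22 on chromosome 19 next to Cx3cl1. RefSeq windows of GRCr8, from 250 bases before to 50 bases after the start of transcription, matched 4 of the 8 members (Ccl7, Ccl19, Ccl20 and Ccl22) and are printed 5′ to 3′ on the strand of the gene. All 4 are shown because no window was matched for the other members. Ccl7, Ccl19 and Ccl20 had higher ratios on procainamide arrays in both strains and Ccl22 did not. With Ccl22 alone on that side, no comparison of the windows by response is drawn. Capitals mark matches to the kappaB consensus (10 bases, either strand), to TATAAA on the strand of the gene, to the AP-1 motif TGANTCA (either strand) and to GAAANNGAAA (either strand), the core of the interferon-stimulated response element. Ccl7 lies at chr10:67513845-67514144 on the plus strand, Ccl19 at chr5:61761115-61761414 on the minus strand, Ccl20 at chr9:91836909-91837208 on the plus strand and Ccl22 at chr19:10270310-10270609 on the minus strand.
Ccl7: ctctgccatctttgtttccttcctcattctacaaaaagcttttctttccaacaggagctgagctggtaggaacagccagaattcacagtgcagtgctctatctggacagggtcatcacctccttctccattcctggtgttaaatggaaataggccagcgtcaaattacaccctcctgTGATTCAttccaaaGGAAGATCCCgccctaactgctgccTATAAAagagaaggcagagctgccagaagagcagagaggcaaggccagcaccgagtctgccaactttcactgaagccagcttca
Ccl20: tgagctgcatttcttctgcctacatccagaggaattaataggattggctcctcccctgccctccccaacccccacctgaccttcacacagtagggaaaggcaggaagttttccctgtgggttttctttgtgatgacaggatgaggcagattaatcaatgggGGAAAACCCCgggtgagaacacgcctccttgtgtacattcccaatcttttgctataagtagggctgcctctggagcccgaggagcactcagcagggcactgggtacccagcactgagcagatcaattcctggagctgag
Ccl19: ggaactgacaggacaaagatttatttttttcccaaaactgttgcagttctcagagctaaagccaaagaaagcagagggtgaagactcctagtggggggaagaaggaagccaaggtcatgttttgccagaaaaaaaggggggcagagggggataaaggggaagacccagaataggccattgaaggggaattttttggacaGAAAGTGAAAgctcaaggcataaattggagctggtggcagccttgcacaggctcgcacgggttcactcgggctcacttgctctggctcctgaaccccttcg
Ccl22: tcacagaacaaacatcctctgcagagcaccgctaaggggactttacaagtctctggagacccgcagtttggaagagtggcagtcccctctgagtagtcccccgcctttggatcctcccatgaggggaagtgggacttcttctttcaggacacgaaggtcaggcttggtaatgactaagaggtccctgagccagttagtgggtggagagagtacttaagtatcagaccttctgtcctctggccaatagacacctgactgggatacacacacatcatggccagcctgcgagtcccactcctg

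The Ccl7 window held 3 matches: TGATTCA at -73 to -67, GGAAGATCCC of the kappaB consensus on the minus strand at -59 to -50, and TATAAA at -34 to -29, counted from the start of transcription. The Ccl20 window held GGAAAACCCC of the kappaB consensus on the minus strand at -89 to -80. The Ccl19 window held GAAAGTGAAA at -51 to -42. The Ccl22 window held none of these letters, and no motif was found in more than 2 of the 4 windows. Over 33469 RefSeq windows of the same length, 7.51% held the kappaB consensus, 8.80% TATAAA, 7.33% TGANTCA and 3.92% GAAANNGAAA. A match describes letters and shows no binding.

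Ccl2 and Ccl7, the monocyte chemokines, had mean ratios on procainamide arrays between 2.55 and 3.20 times those of the controls of the same strain. The log2 Cy5/Cy3 ratio of Ccl2 was 1.00, 1.99, 1.83 and 1.21 on BN procainamide 1 to 4, against -0.07, 0.22, -0.39 and -0.21 on BN control 1 to 4. The ratio was 1.26, 1.78, 1.75, 0.87 and 1.49 on SD procainamide 1 to 5, against -0.48, -0.41, 0.69, -0.22 and -0.30 on SD control 1 to 5. Every procainamide array lay above every control array of its strain, and SD control 3 stood apart above the other SD controls. The difference was 1.62 ± 0.27 in BN (SE, 3.07-fold) and 1.57 ± 0.24 in SD (SE, 2.97-fold).

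Ccl7, which acts on the same receptor, had log2 ratios of 0.98, 2.37, 2.04 and 0.74 on BN procainamide 1 to 4, against 0.15, -0.05, -0.88 and 0.21 on BN control 1 to 4. On SD procainamide 1 to 5 it had 1.18, 1.67, 1.76, 0.80 and 1.38, against -0.60, -0.39, 0.65, -0.03 and 0.40 on SD control 1 to 5. The groups did not overlap in either strain, and BN procainamide 2 and 3 were the high arrays for both genes. The difference was 1.68 ± 0.36 in BN (SE, 3.20-fold) and 1.35 ± 0.32 in SD (SE, 2.55-fold). The response in BN minus that in SD was 0.05 for Ccl2, with a 95% interval between -0.71 and 0.80, and 0.32 for Ccl7, with an interval between -0.68 and 1.33.

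Ccl20, the ligand of Ccr6, had the largest difference of the 8 in BN. Its log2 ratio was 2.18, 2.86, 2.07 and 2.02 on BN procainamide 1 to 4, against -0.21, -0.55, -0.45 and -0.15 on BN control 1 to 4. On SD procainamide 1 to 5 the ratio was 1.08, 1.54, 1.40, 0.85 and 1.15, against -0.12, -0.53, 0.19, -0.14 and -0.43 on SD control 1 to 5. Both strains separated without overlap, and each BN procainamide array also lay above each SD procainamide array. The difference was 2.62 ± 0.19 in BN (SE, 6.17-fold) and 1.41 ± 0.17 in SD (SE, 2.66-fold). The other Ccl20 probe gave 2.35 ± 0.17 in BN and 1.33 ± 0.15 in SD.

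Ccl20 was dim in controls: the probe was well above background on 4 of 4 BN procainamide, 4 of 4 BN control, 5 of 5 SD procainamide and 2 of 5 SD control arrays. Its size therefore depends on the treatment of background. The log2 difference was 3.76 in BN and 2.67 in SD with the scanner's own log ratios, and 2.96 and 1.70 with no background correction. The response in BN minus that in SD was 1.21 ± 0.26 with the brightest probe, 1.02 ± 0.23 with the other probe and 1.09 ± 0.49 with the scanner's log ratios.

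Ccl3 had higher ratios on procainamide arrays in BN and not in SD. Its log2 ratio was 0.81, 0.60, 0.22 and 0.67 on BN procainamide 1 to 4, against -0.27, -0.0035, 0.11 and -0.24 on BN control 1 to 4. On SD procainamide 1 to 5 it was -0.16, -0.15, -0.19, -0.40 and -0.12, against 0.03, 0.14, -0.21, -0.14 and -0.03 on SD control 1 to 5. The BN groups did not overlap and the SD groups did. The difference was 0.67 ± 0.12 in BN (SE, 1.60-fold) and -0.16 ± 0.11 in SD, and the response in BN minus that in SD was 0.83 ± 0.17.

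Ccl4, its chromosomal neighbour, had higher ratios in both strains. The log2 ratio of Ccl4 lay between 0.88 and 1.21 on BN procainamide arrays, against -0.21 to 0.05 on BN control arrays. It lay between 0.63 and 1.27 on SD procainamide arrays, against -0.53 to 0.35 on SD control arrays. The groups did not overlap, and the difference was 1.15 ± 0.17 in BN (SE, 2.22-fold) and 0.95 ± 0.15 in SD (SE, 1.94-fold). The response in BN minus that in SD was 0.19 for Ccl4, with a 95% interval between -0.28 and 0.67.

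Ccl5, which draws T cells and monocytes, had log2 ratios of 1.24, 1.29, 0.65 and 1.58 on BN procainamide 1 to 4, against -0.19, 0.13, 0.08 and -0.55 on BN control 1 to 4. On SD procainamide 1 to 5 it had 0.42, 0.57, 1.16, 0.34 and 0.85, against -0.09, 0.11, -0.52, -0.50 and 0.04 on SD control 1 to 5. The groups did not overlap in either strain, and BN procainamide 3 was the low array of its group, as it was for Ccl3. The difference was 1.32 ± 0.22 in BN (SE, 2.49-fold) and 0.86 ± 0.20 in SD (SE, 1.81-fold).

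Ccl19, the ligand of Ccr7, had the smallest BN difference among the members whose ratios were higher in both strains. Its log2 ratio was 0.95, 1.08, 0.81 and 0.62 on BN procainamide 1 to 4, against -0.12, -0.19, -0.13 and 0.40 on BN control 1 to 4. On SD procainamide 1 to 5 it was 1.09, 1.60, 1.48, 0.91 and 1.66, against -0.37, -0.29, 0.32, -0.05 and -0.30 on SD control 1 to 5. No groups overlapped, and BN control 4 stood apart above the other BN controls. The difference was 0.87 ± 0.19 in BN (SE, 1.83-fold) and 1.49 ± 0.17 in SD (SE, 2.81-fold), and the response in BN minus that in SD was -0.62 ± 0.25.

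Ccl22, the ligand of Ccr4, had overlapping groups in both strains. Its log2 ratio lay between -0.42 and 0.20 on BN procainamide arrays, against -0.19 to 0.49 on BN control arrays, and between -0.02 and 0.13 on SD procainamide arrays, against -0.25 to 0.31 on SD control arrays. The difference was -0.24 ± 0.15 in BN and 0.03 ± 0.14 in SD (SE). The 95% interval lay between -0.56 and 0.09 in BN and between -0.27 and 0.32 in SD.

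**Figure D1:**
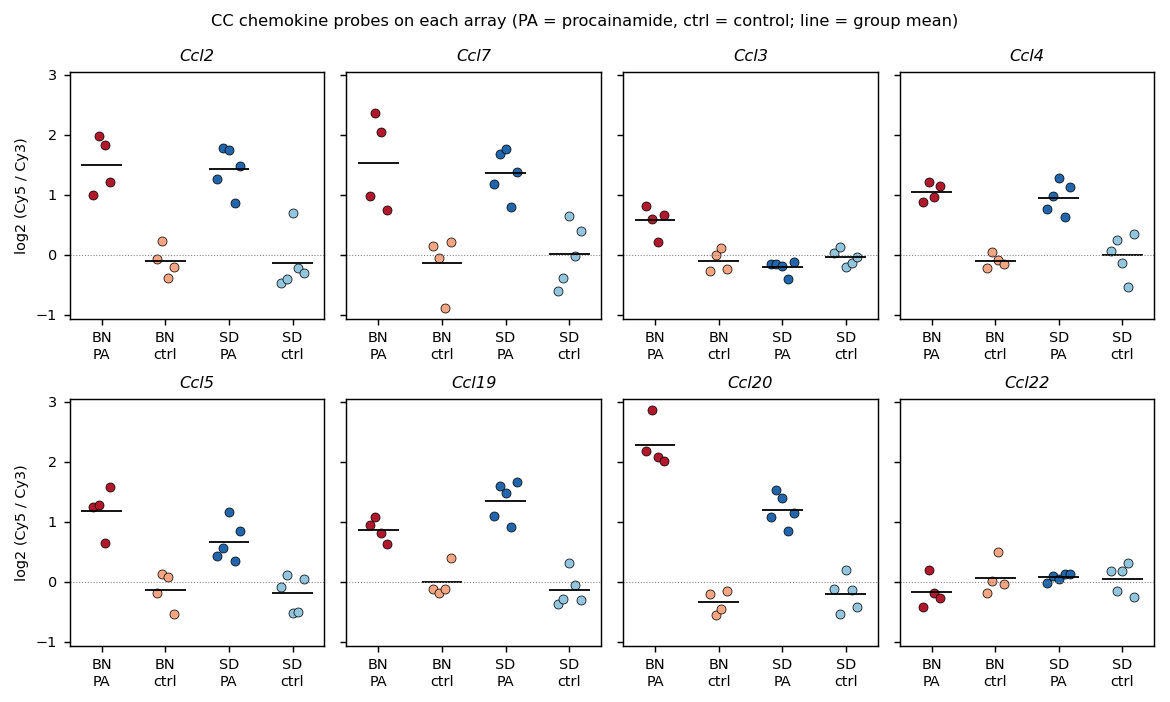
Log2 Cy5/Cy3 ratio of each CC chemokine on each of the 18 arrays. Columns are BN procainamide, BN control, SD procainamide and SD control, points are arrays and black lines are group means. Ccl20 lies highest on BN procainamide arrays, between 2.02 and 2.86, Ccl3 is raised on BN procainamide arrays but not on SD procainamide arrays, and the groups of Ccl22 overlap.

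Across the 8 members the median log2 difference was 1.23 in BN and 1.15 in SD, beside -0.04 and 0.01 over all 26424 probes tested. The median of the response in BN minus that in SD was 0.26 for the members and -0.03 for all probes. Every BN procainamide array lay above every BN control array for 7 of 8 members, and for 7.08% of all probes. Every SD procainamide array lay above every SD control array for 6 of 8 members, and for 3.98% of all probes. The members were picked from these ratios, so nothing is read from these counts, and no calls are given for them. As background for the lists of other genes that follow, limma with Benjamini-Hochberg adjustment and a threshold of 0.05 called 21.8% of all probes in BN, 7.68% higher and 14.1% lower. In SD it called 2.75%, 1.36% higher and 1.39% lower. For the response in BN minus that in SD it called 11.2%, 2.59% higher and 8.56% lower.

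**Figure D2:**
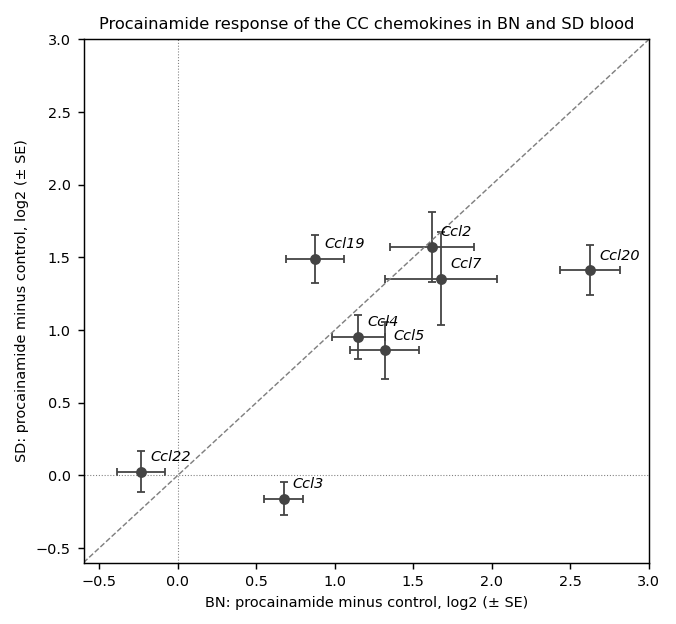
Log2 difference of procainamide minus control arrays for each CC chemokine, in BN blood (horizontal axis) and SD blood (vertical axis), with bars of 1 SE, and a dashed line where both are equal. Ccl20 (2.62 in BN, 1.41 in SD) and Ccl3 (0.67 in BN, -0.16 in SD) lie right of the line, Ccl19 (0.87 in BN, 1.49 in SD) lies above it, and Ccl2, Ccl7 and Ccl4 lie near it.

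Part of several ratios came from the Cy3 channel, although its RNA was the same on all arrays of a strain. Log2 Cy3 of Ccl5 averaged 14.46 ± 0.23 on BN procainamide arrays and 15.45 ± 0.12 on BN control arrays (SD, n = 4 each), a shift of -0.99, while log2 Cy5 of Ccl5 shifted by 0.33. Log2 Cy3 of Ccl19 shifted by -0.44 between procainamide and control arrays in BN and by -0.63 in SD, while its Cy5 shifted by 0.43 and 0.86. For Ccl5 the Cy5 shift was smaller in BN (0.33) than in SD (0.57), the opposite order to that of the ratios.

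Ccl20, Ccl2 and Ccl4 rested mainly on Cy5. The Cy5 shift of Ccl20 was 2.35 in BN and 1.48 in SD, that of Ccl2 was 1.42 and 1.46, and that of Ccl4 was 1.12 and 0.78. Their Cy3 shifts lay between -0.27 and 0.07 over both strains. Ccl7 had Cy5 shifts of 1.31 in BN and 1.02 in SD beside Cy3 shifts of -0.37 and -0.33. Ccl3 had a Cy5 shift of 0.43 and a Cy3 shift of -0.25 in BN, and -0.06 and 0.10 in SD. The part of the Cy3 shift in these results was not tested.

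**Figure D3:**
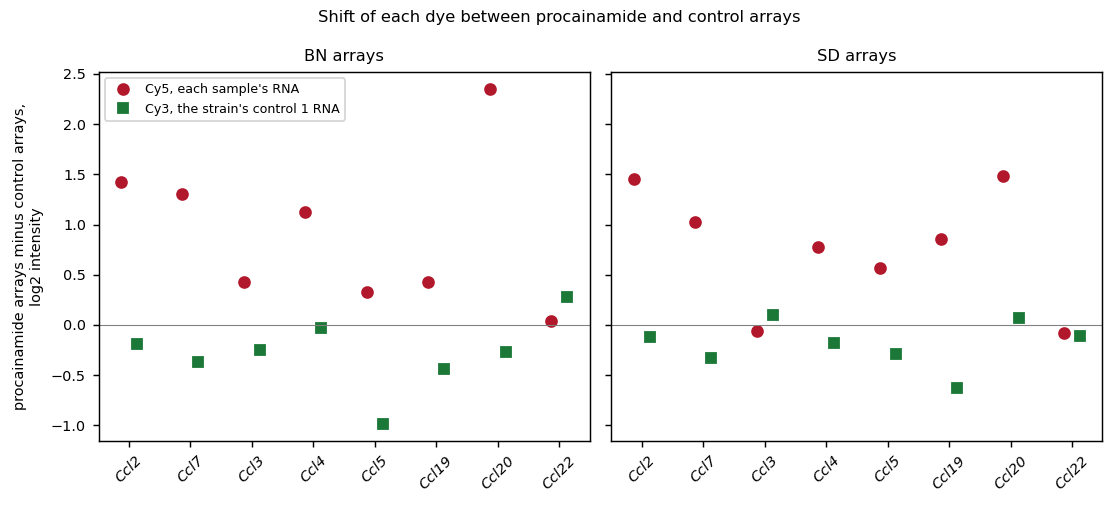
Mean log2 intensity on procainamide arrays minus that on control arrays, for Cy5 (circles, each sample's RNA) and for Cy3 (squares, the control replicate 1 RNA of the strain), in BN (left) and SD (right). The Cy3 square of Ccl5 in BN lies at -0.99 and that of Ccl19 at -0.44 in BN and -0.63 in SD, while the Cy5 circle of Ccl20 lies at 2.35 in BN and 1.48 in SD.

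A scan day term, and a fit within a single slide in SD, moved the size of the responses and not the sign of the larger ones. No fit could set slide apart from treatment in BN, so an effect of slide on the BN values was not tested. With scan day as a term, which the SD procainamide arrays on both days allow, the BN difference was 2.29 ± 0.31 for Ccl20, 1.20 ± 0.43 for Ccl2, 1.23 ± 0.59 for Ccl7, 1.20 ± 0.37 for Ccl5, 1.03 ± 0.28 for Ccl4, 0.77 ± 0.31 for Ccl19 and 0.58 ± 0.21 for Ccl3 (SE). Within the slide that holds SD control 1 to 5 and SD procainamide 1 to 3, the SD difference was 1.74 ± 0.26 for Ccl2, 1.55 ± 0.17 for Ccl20, 1.53 ± 0.28 for Ccl7, 1.53 ± 0.18 for Ccl19, 1.00 ± 0.20 for Ccl4 and 0.91 ± 0.21 for Ccl5 (SE). SD procainamide 4 was the lowest array of its group for 7 of 8 members, and BN procainamide 2 the highest of its group for 6 of 8. The response in BN minus that in SD was 0.74 ± 0.42 for Ccl20, 0.70 ± 0.28 for Ccl3 and -0.77 ± 0.43 for Ccl19 once scan day was a term. With that term 0 of 26424 probes passed by limma for the difference of the responses, and 1527 had an unadjusted p under 0.05.

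The ratios known when the members were chosen are taken to the same strain and do not give the strain level directly. The level in untreated blood was therefore tested between strains in log2 Cy5. These Cy5 values are the numerators of the same ratios, so the test is not fully apart from the choice. Ccl3 and Ccl22 were lower and Ccl20 was higher in untreated BN than in untreated SD blood. Over all probes 38.6% passed, 21.7% higher and 16.9% lower in BN, so 3 of 8 members (1 higher, 2 lower) is close to the background. Log2 Cy5 of Ccl3 was 13.23, 13.42, 13.54 and 13.24 on BN control 1 to 4, against 13.77, 13.88, 13.60, 13.66 and 13.80 on SD control 1 to 5. The strains did not overlap, and the difference was -0.38 ± 0.10 (SE, limma adjusted p = 0.00775).

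Log2 Cy5 of Ccl22 was 10.19, 10.35, 10.83 and 10.38 on BN control 1 to 4, against 11.18, 10.83, 11.10, 11.27 and 10.84 on SD control 1 to 5. The highest BN array lay just below the lowest SD array, and the difference was -0.61 ± 0.14 (SE, limma adjusted p = 0.00367). Log2 Cy5 of Ccl20 was 7.50, 7.22, 7.24 and 7.54 on BN control 1 to 4, against 6.95, 6.52, 7.24, 6.80 and 6.71 on SD control 1 to 5. The strains overlapped at SD control 3, and the difference was 0.53 ± 0.19 (SE, limma adjusted p = 0.0325). The other Ccl20 probe gave 0.31 ± 0.21, which did not pass (limma adjusted p = 0.238). Leaving out BN control 1, BN control 4, SD control 2, SD control 4 or SD control 5 also ended the Ccl20 call, with differences between 0.45 and 0.52. The brightest Ccl20 probe was well above background on only 2 of 5 SD control arrays. Its strain difference was 0.70 with no background correction and 1.42 with the scanner's processed Cy5 signal, so its size depends on the treatment of background.

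For the other 5 members the strain difference did not pass by limma. It was 0.29 for Ccl5, with a 95% interval between 0.03 and 0.54 (limma adjusted p = 0.0697), and that call was gained without BN control 4 (0.36, adjusted p = 0.0362) or without SD control 5 (0.35, adjusted p = 0.0380). The interval lay between -0.46 and 0.49 for Ccl2, between -0.92 and 0.15 for Ccl7, between -0.26 and 0.35 for Ccl4, and between -0.11 and 0.36 for Ccl19. Untreated BN and SD arrays lay on different slides and scan days. With scan day as a term 0 of 8 members passed by limma and 2 had an unadjusted p under 0.05. Over all 26424 probes 384 then passed and 3676 had an unadjusted p under 0.05, so few calls remained in any list. The values were then -0.39 for Ccl3 (adjusted p = 0.336), -0.33 for Ccl22 (adjusted p = 0.583) and 0.71 for Ccl20 (adjusted p = 0.330). With slide as a random block Ccl3 passed by limma (adjusted p = 0.0462) and Ccl22 did not, its adjusted p lying just above the threshold. Ccl20 did not pass there either (adjusted p = 0.0892).

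**Figure D4:**
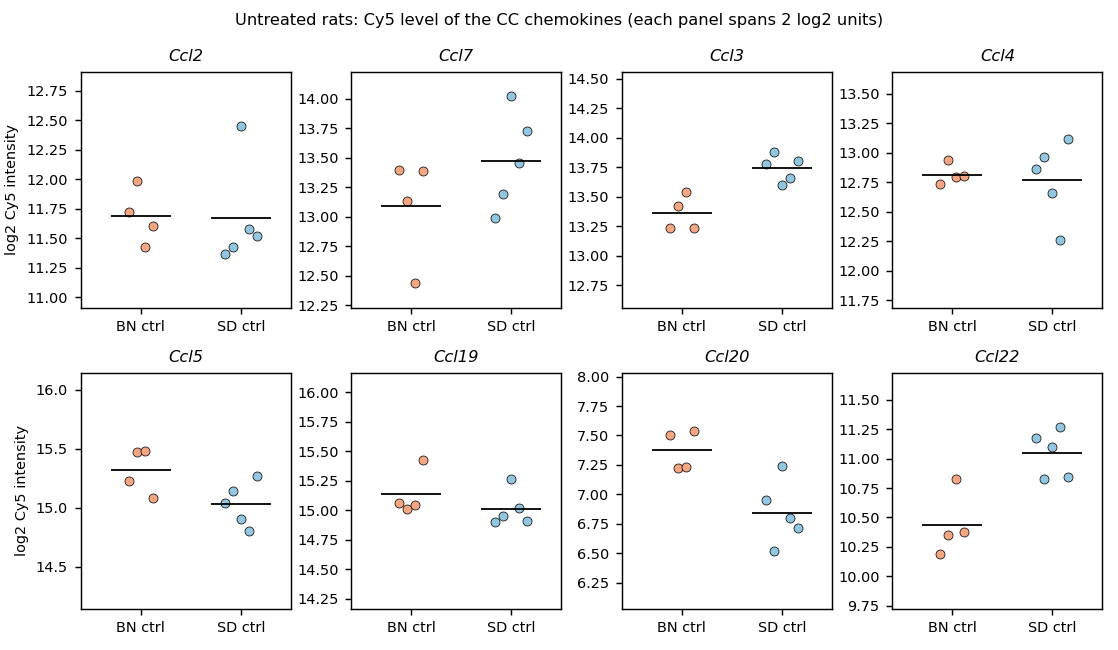
Log2 Cy5 intensity of each CC chemokine on the BN control arrays (left) and SD control arrays (right). Points are arrays and black lines are means, and each vertical axis spans 2 log2 units around its own values. Ccl3 and Ccl22 lie lower on BN control arrays, and the strains overlap for the other members.

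The Cy3 channel and the procainamide arrays give the same strain comparison as a description. In Cy3, which holds 1 control RNA of each strain, BN minus SD was -0.50 for Ccl3, -0.43 for Ccl22 and 0.49 for Ccl20, with values between -0.26 and 0.22 for the other members. On procainamide arrays BN minus SD in log2 Cy5 was 1.40 for Ccl20, 0.39 for Ccl4, 0.10 for Ccl3, -0.30 for Ccl19 and -0.48 for Ccl22. Ccl3 thus lay lower in BN than in SD among untreated arrays and at a mean level of 13.78 in BN and 13.68 in SD among procainamide arrays.

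The members differed in how they varied from array to array. Over the 18 arrays, the log2 ratios of Ccl2 and Ccl7 had a Pearson r of 0.947, and 0.832 once the mean of each group was taken off. Ccl4 and Ccl5 had 0.918, and 0.750 within groups, and Ccl3 and Ccl5 had 0.742 within groups. Ccl19 and Ccl20 had 0.734 within groups, while Ccl7 and Ccl3 had -0.514. The median of the 28 pairs was 0.654, and 0.106 within groups. These values share the Cy3 RNA and slides of the arrays and are descriptions.

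The genes whose ratio was most like that of a member, over the 18 arrays and 13593 named genes, were counted by Pearson r. For Ccl20 they were Acod1 (0.980), the enzyme that makes itaconate, and the interferon-inducible GTPases Gbp2 (0.975) and Gbp5 (0.967). For Ccl2 they were Psme2 (0.960), a subunit of the proteasome activator, Ifgga2l1 (0.949) and Hk3 (0.946), a hexokinase, and for Ccl7 Il18bp (0.953), which binds interleukin-18, Psmb2 (0.949), a proteasome subunit, and Gpr84 (0.946). For Ccl5 they were the NK receptor genes Klrc2 (0.955) and Klrc1 (0.941) and Faslg (0.945), the ligand of Fas, and for Ccl4 Nkg7 (0.908), a cytotoxic granule gene, Psme2 (0.904) and Gbp5 (0.900). For Ccl19 they were Psmb9 (0.884), an immunoproteasome subunit, Erich2 (0.877) and Gcat (0.875), for Ccl3 Bhmt (0.911), Insl3 (0.909) and Pxylp1 (0.906), and for Ccl22 Copg2 (0.697), Sppl2c (0.695) and Rptor (0.693). Within groups Ccl9 was most like Ccl7 (0.930), Gzmk most like Ccl4 (0.899), Atf3 most like Ccl2 (0.879) and Sfi1 most like Ccl3 (0.886). Usp2 was most like Ccl5 (0.921), Pgbd5 most like Ccl20 (0.828), Zbbx most like Ccl19 (0.773) and Or9k2 most like Ccl22 (0.79).

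Of the 12 other CC chemokine ligands on the array, 1 rose and 3 fell in BN by limma, with a median difference of -0.37, where 7.68% of all probes rose and 14.1% fell. In SD 2 fell, with 3 at an unadjusted p under 0.05, where 1.39% of all probes fell and 4486 of 26424 had such an unadjusted p. The 1 riser of 12 in BN is near the background. Ccl26 (-1.00 ± 0.16 in BN, limma adjusted p = 0.000520) and Ccl11 (-0.82 ± 0.27, adjusted p = 0.0381) fell in BN. The fall of Ccl26 is measured from high BN controls, with ratios of 1.41, 0.99, 1.33 and 1.69 on BN control 1 to 4. BN control 1 is labelled as the same RNA in both dyes. The mean ratio of Ccl26 was 0.35 on BN procainamide and 0.31 on SD control arrays. The part of this offset in the fall was not tested. Ccl21, which shares the receptor of Ccl19, fell in BN (-0.94 ± 0.19, adjusted p = 0.00261) and in SD (-0.73 ± 0.17, adjusted p = 0.0334). Ccl1 fell in SD (-0.68 ± 0.17, adjusted p = 0.0375). Ccl9, the neighbour of Ccl5, rose in BN (1.11 ± 0.15, SE, limma adjusted p = 0.000102), with ratios of 0.61, 1.20, 1.00 and 0.55 on BN procainamide 1 to 4, against -0.22, -0.24, -0.60 and -0.03 on BN control 1 to 4. Once scan day was a term, 0 of 12 passed by limma in BN, where 5 had an unadjusted p under 0.05, and 0 in SD, where 3 had. Over all 26424 probes 209 then passed in BN (3253 unadjusted) and 254 in SD (3304 unadjusted). Ccl9 then had 0.89 in BN (adjusted p = 0.103) and Ccl26 -0.57 (adjusted p = 0.336). Ccl11 in BN did not pass without BN control 2, BN control 3, BN procainamide 2 or BN procainamide 4 (-0.87 to -0.58). Ccl1 in SD did not pass when any SD array but SD procainamide 1 was left out (-0.73 to -0.58), nor did Ccl21 in SD when any SD array but SD procainamide 1 or SD control 5 was (-0.76 to -0.63).

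Of 11 probed CC chemokine receptors, 2 rose and 2 fell in BN by limma, where 7.68% of all probes rose and 14.1% fell, so that the 2 that fell are near the background. In SD 0 passed by limma, where 2.75% of all probes passed. There 6 receptors had an unadjusted p under 0.05, each with a negative difference, where 4486 of 26424 probes had such a p. Ccr6, the receptor of Ccl20, rose in BN by 0.63 ± 0.16 (SE, limma adjusted p = 0.0114), with -0.15 ± 0.15 in SD, and Ccr10 rose by 0.39 ± 0.14 (adjusted p = 0.0491). Ccr3, the receptor of eosinophils, fell by 1.97 ± 0.30 on the log2 scale in BN (adjusted p = 0.000327), and Ccr1l1 fell by 1.39 ± 0.30 (adjusted p = 0.00336). Ccr2, the receptor of Ccl2 and Ccl7, had 0.50 ± 0.24 in BN (adjusted p = 0.148) and -0.61 ± 0.21 in SD (adjusted p = 0.139). Ccr7, the receptor of Ccl19, had 0.11 ± 0.29 in BN and 0.03 ± 0.26 in SD, and Ccr4, the receptor of Ccl22, had 0.05 ± 0.20 in BN and -0.67 ± 0.18 in SD. Ccr10 did not pass without BN control 2, 3 or 4, BN procainamide 1, 2 or 4, SD control 1, 2, 4 or 5, or SD procainamide 1 or 4 (0.31 to 0.43). Ccr3 in SD (-0.98 ± 0.27, adjusted p = 0.0607) passed without BN control 1, BN procainamide 2 or BN procainamide 3. Without SD control 5, 1 receptor passed in SD. With scan day as a term 0 of 11 receptors passed in BN by limma, where 3 had an unadjusted p under 0.05. Of all 26424 probes 209 then passed in BN, and 3253 had an unadjusted p under 0.05.

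**Figure D5:**
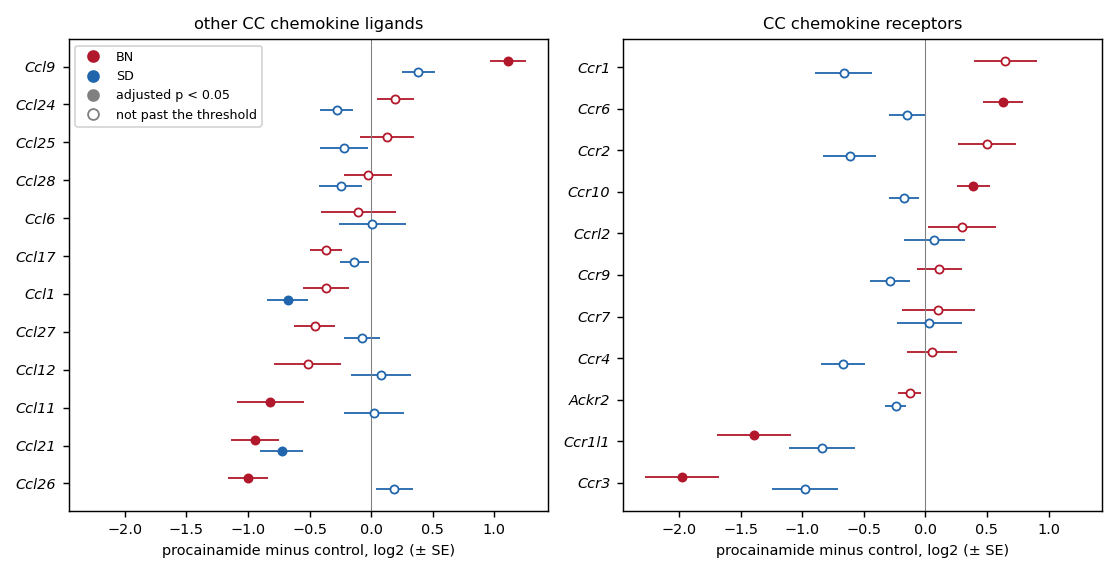
Log2 difference of procainamide minus control arrays in BN and SD for the other CC chemokine ligands (left) and the CC chemokine receptors (right), with bars of 1 SE. Filled points passed limma's adjusted p threshold of 0.05. Ccl9 (1.11 in BN) and Ccr1 (0.65 in BN) lie at the top, Ccl26 (-1.00 in BN) and Ccr3 (-1.97 in BN) at the bottom.

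Cytokines that induce these chemokines, chemokine ligands of other families and NF-kB genes were read from lists of their own. Of 6 probed inducing cytokines, Ifng rose in BN (3.43 ± 0.44, SE, limma adjusted p = 7.18e-05) and in SD (2.17 ± 0.39, adjusted p = 0.00712), and Tnf (1.29 ± 0.20, adjusted p = 0.000315) and Il1a (1.01 ± 0.21, adjusted p = 0.00256) rose in BN. These were 3 of 6 in BN, where 7.68% of all probes rose, and 1 of 6 in SD, where 1.36% did. Of 15 probed ligands of the CXC, XC and CX3C families, 6 rose and 1 fell in BN, where 7.68% of all probes rose and 14.1% fell, and 3 rose in SD, where 1.36% did. They were led by Cxcl9, an interferon-gamma target (3.14 ± 0.32 in BN, adjusted p = 6.89e-06, and 2.13 ± 0.28 in SD, adjusted p = 0.00111). A list of 9 probed NF-kB genes held subunits, inhibitors and genes of the upstream IKK kinase complex, Chuk among the last. Chuk rose in BN (0.66 ± 0.20, limma adjusted p = 0.0273). Bcl3 fell in BN (-0.39 ± 0.11, adjusted p = 0.0148) and rose in SD (0.47 ± 0.10, adjusted p = 0.0136). Beside the 7.68% of all probes that rose and 14.1% that fell in BN, 1 riser and 1 faller of 9 are near the background. In SD 1.36% of all probes rose. Chuk did not pass without BN control 4, BN procainamide 1 or BN procainamide 4 (0.48 to 0.60), nor Bcl3 in SD without SD control 2 (0.44, adjusted p = 0.0536). Rela, an NF-kB subunit with several probes, did not pass by its brightest probe (0.15 in BN and 0.26 in SD), while its other probe gave -0.49 in BN (limma adjusted p = 0.0230) and 0.50 in SD (adjusted p = 0.0474).

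These lists were also fitted with scan day as a term. The BN procainamide and BN control arrays were scanned on different days, so the term rests on the SD procainamide arrays. The part of scan day in the BN calls was not tested. In a fit with that term, Cxcl9 alone of these 3 lists passed in BN by limma (3.28, adjusted p = 0.00710), where 209 of 26424 probes passed. The BN value was then 3.08 for Ifng (adjusted p = 0.0625), 0.65 for Tnf (adjusted p = 0.314) and 0.74 for Il1a (adjusted p = 0.395). It was 0.75 for Chuk (adjusted p = 0.384) and -0.11 for Bcl3 (adjusted p = 0.831). In SD, Ifng still passed by limma and Bcl3 did not (0.36, adjusted p = 0.102).

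Some blood cell markers moved with the BN response, and their counts are to be read against the 7.68% of all probes that rose and 14.1% that fell in BN, and the 2.75% that passed in SD. Of all 26424 probes 9115 in BN and 4486 in SD had an unadjusted p under 0.05. Of 6 probed platelet markers 4 fell in BN and 0 in SD by limma (2 at an unadjusted p under 0.05 in SD), and their summed Cy5 signal ran between 44189 and 63300 units on BN procainamide arrays, against 58694 to 75242 on BN control arrays. Of 13 markers of endothelium, stroma and epithelium 5 fell in BN and 2 in SD, with sums between 155411 and 191056 on BN procainamide arrays, against 192702 to 213268 on BN control arrays. Of 9 markers of eosinophils, basophils and mast cells 3 fell (Prg2, Prg3 and Ccr3) and 2 rose (Hdc and Fcer1a) in BN. Of 10 monocyte and macrophage markers Lyz2 rose and Mrc1 fell in BN, and Mrc1 fell in SD, with sums between 230956 and 317883 units on BN procainamide arrays, against 213447 to 262369 on BN control arrays. Of 9 neutrophil markers Mmp9 rose in BN (0.97 ± 0.23, limma adjusted p = 0.00710), and the median difference of the list was 0.76 in BN and -0.18 in SD. Their summed Cy5 signal ran between 52343 and 120316 units on BN procainamide arrays, with a median of 106563, against 53013 to 75875 on BN control arrays, with a median of 68755. Cxcr2 had a response that differed between the strains (1.60 ± 0.39, BN minus SD, adjusted p = 0.0132). Of 9 markers of mature dendritic cells Fscn1 rose in both strains while Cd80 and Zbtb46 fell in BN. Of 9 NK cell markers Nkg7 rose in both strains, and of 10 T cell markers 0 passed by limma in either strain (1 at an unadjusted p under 0.05 in BN, 2 in SD). Of 6 B cell markers Cr2 fell in BN, and of 6 red cell precursor markers Klf1 fell in BN. Calls of 1 in a list of 6 to 10 are near the background in BN. Once scan day was a term, 0 markers of any of these lists passed by limma in BN, where 0 to 4 of a list had an unadjusted p under 0.05. Of all 26424 probes 209 then passed in BN, and 3253 had an unadjusted p under 0.05. The part of cell composition in the responses of the 8 members was not tested.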

How the data were processed

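Blood RNA of 18 samples was measured on Agilent 2-colour arrays (design with 62976 spots and 30367 probes). The authors deposited the scanner output of Feature Extraction 10.7.1.1: median spot and background intensities per channel, without normalization, and log10 ratios of background-subtracted, dye-normalized intensities, per the file headers. They also deposited a matrix of log2 ratios for 25602 probes, with scale, centring and direction unstated. Each column followed the scanner's log ratio (r 0.999 or more), and column medians lay between -0.0140 and 0.0653, so its direction is Cy5 over Cy3. A correlation is unchanged by scale, so the scale was not shown. What filter chose its probes stays unknown.

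In R 4.3.3 with limma 3.58.1, median intensities were corrected with normexp (offset 50) and normalized by loess within arrays. Flagged spots were left out, except for 0.0741% of values with no other, and spots of a probe were averaged. Levels in Cy5 were also normalized between arrays (Aquantile). Probes well above background on 4 arrays or more (26424) were tested with lmFit and eBayes over 4 group means. Symbols came from RefSeq, with 1 symbol for 18355 of 30367 probes. Intervals are at the 95% level. The method was tested on simulated data.

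The members and lists were chosen with earlier results of these data known. Named are the members, the 3 genes most like each, and genes of each fixed list past the threshold in a response, up to 8. Ccr1, Ccr2, Ccr4, Ccr7, Rela and the markers are named beyond that rule, after their values were seen. A CC receptor of the list is not reported here. Same-numbered procainamide and control arrays had deviations that correlated between -0.523 and 0.129. The labels state no pairing by number, and the samples were treated as unpaired. With so few arrays these correlations cannot exclude a pairing. Sequences are from RefSeq (GRCr8).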

Additional observations from a re-analysis of the deposited data

Results flagged for a closer look

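Of 64 sets of 4 or 5 arrays (8 members, 4 groups, ratio and Cy5 level), 5 held an array far from the others by Dixon's criterion, where chance gives about 1 in 20. The ratio and the Cy5 level come from the same spots, so the sets are not independent. Ccl2 on SD control 3 and Ccl19 on BN control 4 were each counted in both measures. Ccl2 stood high on SD control 3, at a log2 ratio of 0.69 and a log2 Cy5 level of 12.45. Ccl19 stood high on BN control 4, at a log2 ratio of 0.40 and a log2 Cy5 level of 15.43. Ccl3 stood low on SD procainamide 4, at a log2 ratio of -0.40.

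Ccl3 lay above the mean of its controls on all 4 BN procainamide arrays and below that mean on all 5 SD procainamide arrays. Its response in BN minus that in SD was 0.83, a description for which no test is given, because the ratios chose the member.

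By limma's test of the difference, the response differed between the strains for 2 of 12 other CC ligands, 3 of 11 CC receptors and 3 of 13 named genes of the other lists, where 11.2% of all probes passed, 2.59% higher and 8.56% lower. The named genes had been chosen for passing in a response. In the CC family, the response in BN minus that in SD was 0.73 for Ccl9 and -1.19 for Ccl26. The value of Ccl26 holds the offset of its BN control arrays given above. Among receptors it was 0.78 for Ccr6, 1.31 for Ccr1 and 1.11 for Ccr2. Ccr1 had 0.65 in BN and -0.66 in SD, and neither response passed by limma (adjusted p = 0.0798 in BN and 0.133 in SD). Elsewhere it was 0.63 for Cxcl16, -0.86 for Bcl3 and 0.89 for Tnf. A fit that included scan day left 0 of 11 receptors and 0 of 12 other CC ligands past this test by limma. In it 2 receptors and 1 ligand had an unadjusted p under 0.05. Of all 26424 probes 0 then passed, and 1527 had an unadjusted p under 0.05. Of the 3 receptors 1 passed without BN control 4, BN procainamide 2 or SD procainamide 4, and of the 2 CC ligands 1 passed without BN control 3 or BN procainamide 2.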

How the results depend on the processing

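The median log2 difference of the 8 members in BN (1.23) was 1.02 with between-array normalization, 1.07 with brightness as a term and 0.78 in Cy5 alone, and in SD (1.15) it was 0.82 in Cy5 alone. Leaving out 1 array gave 1.15 to 1.34 in BN and 1.06 to 1.26 in SD. A filter that asks for a signal above background on all arrays drops Ccl20 and gives no median. Of the members, 3 passed between untreated strains, 1 with slide as a random block, 0 with scan day or brightness as a term (2 and 3 at an unadjusted p under 0.05), and 2 to 3 with 1 array left out.

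With scan day as a term 0 CC receptors passed in BN (main 4) or for the difference (main 3), and 0 other CC ligands in BN (main 4), SD (main 2) or for the difference (main 2). With brightness as a term 1 receptor passed in BN and 0 for the difference, and 2 ligands in BN, 0 in SD and 0 for the difference. In Cy5 alone 3 receptors passed in SD (main 0) and 6 for the difference, and 1 ligand in SD. In Cy5 alone Cxcl10 in BN had -0.049 (main 0.99). With between-array normalization 1 receptor and 1 ligand passed for the difference. Without the self-hybridised arrays 1 receptor passed in SD and 1 for the difference, and 0 ligands in SD. With the filter on all arrays 1 receptor and 1 ligand passed in SD, with no background correction 1 ligand in SD, and with the scanner log ratio or within slide 1, 0 ligands in SD. With 1 array left out receptors gave 0 to 1 in SD and 1 to 4 for the difference, and ligands 0 to 2 in SD and 1 to 2 for the difference. The cause of these moves was not tested.

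Over all probes, the calls in BN (5754) were 209 with scan day, 685 with brightness and 10158 in Cy5 alone. In SD (727) they were 254, 427 and 344 within slide 1, and 234 to 982 with 1 array left out. For the difference (2947) they were 0, 6, 9036 in Cy5 alone and 1842 with between-array normalization, and 1882 to 3822 with 1 array left out. Between untreated strains (10197) they were 384, 2759 and 4572 with slide as a random block.

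The labels state no pairing by replicate number, and no sample correlated with its own number above 0.129. With a replicate block 3580 probes passed in BN, 128 in SD and 1364 for the difference, 2 receptors in BN and 0 for the difference, and 1 ligand in SD and 1 for the difference. The strain comparison could not be fitted with that block, since a number belongs to 1 strain. Signal over background limits Ccl20, which was dim in controls, and BN treatment shares its slides.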

Other observations

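The first replicate of each strain's controls is labelled as the same RNA in both dyes. On that array the log2 ratio of the members lay between -0.27 and 0.15 in BN and between -0.60 and 0.18 in SD, with Ccl7 lowest in SD (-0.60) and Ccl2 at -0.48. In BN the CC ligand Ccl26 stood at 1.41 on that array, and at 0.99, 1.33 and 1.69 on BN control 2 to 4.

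Beside the members, CC genes also differed between untreated strains in log2 Cy5, where 16.9% of all probes were lower in BN. Of the 12 other CC ligands, 4 were lower in untreated BN than in untreated SD blood by limma. Among them were Ccl1 (-1.51 ± 0.15, adjusted p = 4.13e-06) and Ccl17 (-0.68 ± 0.12, adjusted p = 0.000323), which shares the receptor of Ccl22. Of the 11 receptors, 5 were lower, among them Ccr4 (-1.33 ± 0.19, adjusted p = 0.000100), the receptor of Ccl17 and Ccl22, and 0 were higher. These genes were chosen after their values were seen, and with scan day as a term 1 ligand and 1 receptor passed, where 384 of 26424 probes did.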
